A study of Mus musculus with 9 samples.

Results

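The genes described here encode the machinery that copies DNA in the S phase of the cell cycle. They were chosen by name: 44 genes were listed by their role, and a gene was measured where a row of the array table carried its symbol alone. Of the 44, 40 were measured among 14860 genes in all, and Pcna, Rfc2, Lig1 and Rrm2 were not analysed here. To follow them while myeloid precursors (MPs) become osteoclasts (OCs), the fused, many-nucleated cells that break down bone, 9 exon arrays were made from total RNA in 3 groups of 3. Bone marrow cells of C57Black6 mice were expanded on plastic for 3 days in CSF-1, which macrophages and their precursors need to grow, at 100 ng/ml per the labels, while the methods give a lower dose. The MPs were replated in a commercial medium for osteoclast culture. There they received CSF-1 alone, or CSF-1 with RANKL, the signal for OC formation, for 1.5 days or 3 days. No transgene, deletion or drug was part of any group. How long the CSF-1 alone cultures ran is not given in the labels, so an effect of RANKL and an effect of culture time cannot be told apart there, and all 3 comparisons share groups. The methods call the data points of the whole study biological replicates, but whether animals or cultures were the unit is stated neither there nor in the labels, so p-values measure the spread between these arrays. All values are log2 signals normalised over the arrays (RMA), a scale on which a difference of 1 is a 2-fold change. The number of arrays limits the precision.

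A replication origin is first bound by the origin recognition complex (Orc1 to Orc6), which with Cdc6 and Cdt1 loads the ring-shaped MCM helicase (Mcm2 to Mcm7). Cdc45, the GINS complex and Mcm10 turn the loaded ring into a moving helicase, cyclin E with Cdk2 helps to start the process, and DNA polymerases alpha, delta and epsilon then copy the strands with the help of a sliding clamp, its loader and single-strand binding proteins. Many of these genes are transcribed under E2F factors as cells enter S phase; CSF-1 keeps MPs dividing, whereas mature OCs form by fusion and no longer divide.

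The start regions of the members were read for the E2F element, since many of these genes are known to carry it. RefSeq promoter windows of build GRCm38.p6 run from 250 bases before to 50 bases after an annotated transcript start, and 36 of the 44 members had a window, 44 windows in all. An E2F element was taken as TTTCCCGC, TTTGGCGC, TTTGCCGC or TTTCGCGC on either strand, where overlapping matches count separately. It lay in the windows of 15 of 36 members (41.7%), against 704 of 27025 genes with a window (2.61%). By window the counts were 15 of 44 (34.1%) and 744 of 32851 (2.26%). The CCAAT box, searched as CCAAT on either strand, was found for 23 of 36 members (63.9%) and 41.1% of all genes. The cell cycle homology region, searched as TTTGAA or TTCGAA on either strand, was found for 7 of 36 members (19.4%) and 21.7% of all genes. These matches describe the letters of the windows, not bound factors.

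The windows of the helicase subunits and of the loader Cdc6 that hold an element are shown as examples of it, 5′ to 3′ along the gene, with the elements in capitals and 50 bases of each window after the start. They are Mcm3 (chr1:20820263-20820562, minus strand), Mcm5 (chr8:75109259-75109558, plus strand), Mcm6 (chr1:128359656-128359955, minus strand), Mcm7 (chr5:138171834-138172133, minus strand) and Cdc6 (chr11:98907901-98908200, plus strand).
Mcm3: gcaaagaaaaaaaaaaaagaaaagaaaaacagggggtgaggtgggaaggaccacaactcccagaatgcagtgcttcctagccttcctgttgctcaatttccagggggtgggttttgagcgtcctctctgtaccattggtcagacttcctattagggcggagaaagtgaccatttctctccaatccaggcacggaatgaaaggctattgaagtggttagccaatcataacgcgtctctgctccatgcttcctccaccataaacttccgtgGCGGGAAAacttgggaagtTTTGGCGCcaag
Mcm5: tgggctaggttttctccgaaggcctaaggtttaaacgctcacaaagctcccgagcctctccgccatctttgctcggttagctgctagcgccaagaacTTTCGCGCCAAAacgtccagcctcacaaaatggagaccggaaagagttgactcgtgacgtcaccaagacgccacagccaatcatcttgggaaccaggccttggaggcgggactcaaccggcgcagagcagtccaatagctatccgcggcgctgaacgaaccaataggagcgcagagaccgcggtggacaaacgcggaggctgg
Mcm6: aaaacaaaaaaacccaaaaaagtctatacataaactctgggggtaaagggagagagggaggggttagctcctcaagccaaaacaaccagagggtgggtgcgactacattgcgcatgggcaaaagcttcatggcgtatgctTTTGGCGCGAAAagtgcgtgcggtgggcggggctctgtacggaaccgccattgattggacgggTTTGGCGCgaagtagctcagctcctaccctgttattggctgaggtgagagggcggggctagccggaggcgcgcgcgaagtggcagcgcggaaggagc
Mcm7: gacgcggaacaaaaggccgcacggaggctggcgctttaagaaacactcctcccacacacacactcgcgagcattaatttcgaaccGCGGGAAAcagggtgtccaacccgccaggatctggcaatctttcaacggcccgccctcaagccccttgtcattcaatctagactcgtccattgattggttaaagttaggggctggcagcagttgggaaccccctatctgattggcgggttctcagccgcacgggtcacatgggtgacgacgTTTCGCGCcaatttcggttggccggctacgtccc
Cdc6: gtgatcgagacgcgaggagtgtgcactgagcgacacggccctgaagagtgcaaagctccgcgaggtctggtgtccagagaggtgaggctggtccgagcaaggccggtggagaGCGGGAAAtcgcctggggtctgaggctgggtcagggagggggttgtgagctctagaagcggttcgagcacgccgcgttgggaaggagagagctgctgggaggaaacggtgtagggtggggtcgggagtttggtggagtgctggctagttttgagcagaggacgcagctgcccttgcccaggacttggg
In Mcm3 the elements began 19 and 38 bases after the start, in Mcm5 they overlapped and began 153 and 149 bases before it, and in Cdc6 the element began 138 bases before it. Mcm6 held 3, of which those at 110 and 106 bases before the start overlapped and the last lay 47 bases before it. In Mcm7 they began 165 bases before and 16 bases after the start. The window of Mcm2 held none. Elements were also found in the windows of Orc1, Orc3, Cdt1, Gins3, Pola1, Pold1, Pole2, Rfc3, Lig1 and Cdk2.

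Over all 23332 transcript clusters, the median signal lay between 5.02 and 5.09 on 8 arrays and was 5.22 on RANKL 3 days replicate 3. The upper quartile was 7.66 on that replicate and 7.49 to 7.55 on the others. For these genes it was RANKL 3 days replicate 1, with a median of 5.08 over all clusters, that stood apart. Over the 14860 genes its median was 5.60, the lowest of the arrays, against 5.64 to 5.79 on the others. The median member lay 0.92 below its CSF-1 alone mean on replicate 1 at 3 days, while on the other 8 arrays the median lay between −0.10 and 0.09. This replicate 1 was the lowest of the 9 arrays for 37 of 40 members (92.5%), against 4151 of 14860 genes (27.9%). On it 33 of 40 members (82.5%) were more than 0.5 below their CSF-1 alone mean, against 1233 of all genes (8.30%), and on no other array was any member that low. Of the cell type markers read on the same arrays, those at their lowest on it were 2 of 8 for macrophages and monocytes, 0 of 10 for OCs, 4 of 11 for granulocytes and early progenitors, 3 of 6 for stroma and osteoblasts, 2 of 7 for lymphoid cells, 1 of 5 for mast cells and basophils and 0 of 6 for erythroid cells and megakaryocytes. Over 8 macrophage and monocyte markers the mean signal was 10.28 on it, 10.11 and 10.14 on the other 3-day arrays and 10.41 to 10.57 in CSF-1 alone. Over 10 OC markers it was 8.0 on it against 8.91 and 8.95 on the other 3-day arrays, 6.16, 7.97 and 8.02 at 1.5 days and 5.16 to 5.34 in CSF-1 alone. The OC markers were thus lowest within both RANKL groups on replicate 1, whereas the members were low on replicate 1 at 3 days and not at 1.5 days. Mean signals of lymphoid (2.87 to 3.15), mast cell and basophil (2.24 to 2.46), granulocyte and early progenitor (3.72 to 4.10), erythroid and megakaryocyte (4.06 to 4.45) and stromal and osteoblast markers (4.09 to 4.33) lay in these ranges over all 9 arrays. The part that the state of this culture or the quality of its RNA has in the member values was not tested.

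**Figure D1:**
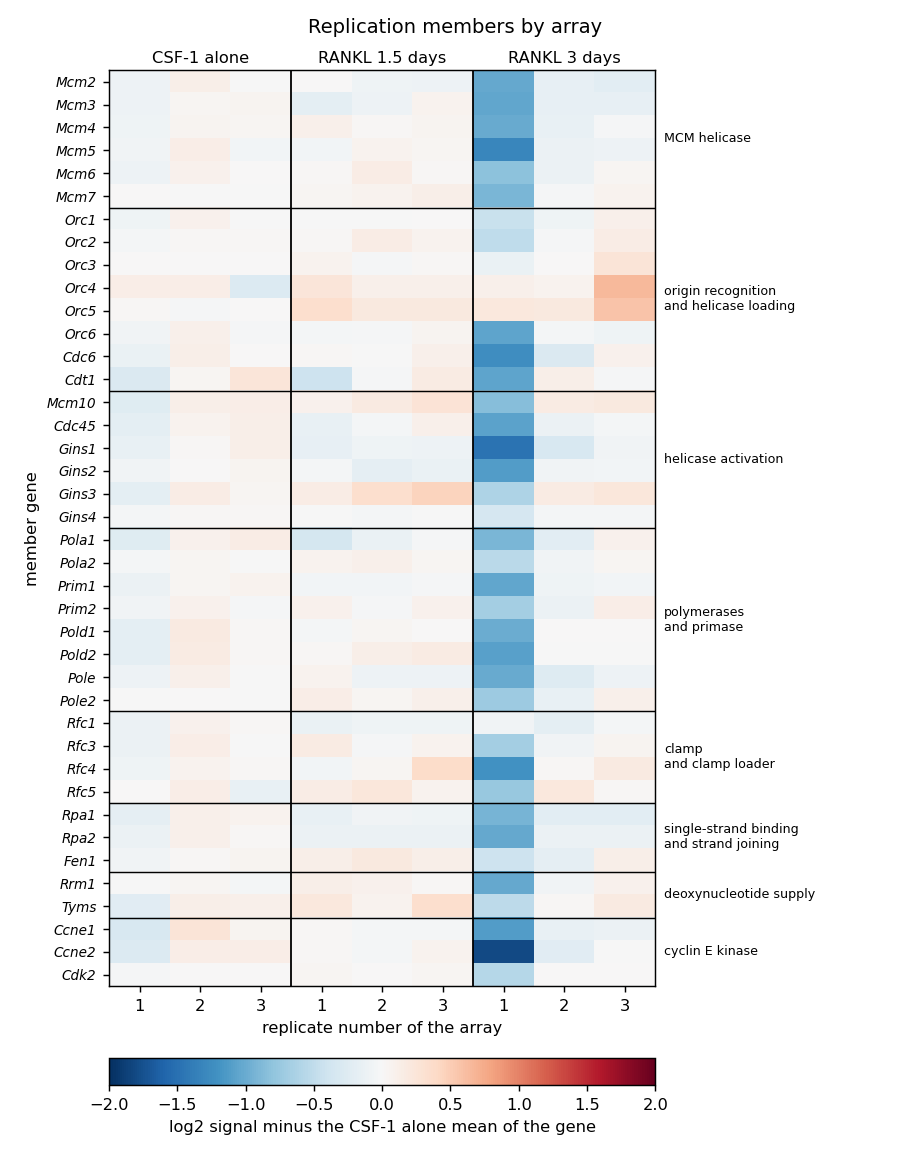
Log2 signal of each of the 40 measured members (rows, grouped by role) on each of the 9 arrays (columns), as the difference from the gene's mean over the 3 CSF-1 alone arrays. The column of RANKL 3 days replicate 1 is blue for nearly every gene, with a median of −0.92, while Orc4, Orc5 and Rfc1 are not at their lowest there.

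To determine how the machinery stood after 3 days of RANKL, this group was compared with CSF-1 alone. No member passed the limma test across all genes, which called 59 genes (0.397%) at an adjusted p under 0.05 (4 to 102 genes when 1 of the 9 arrays was left out). The fitted change of the members had a median of −0.32 and ran from −0.68 for Ccne2 to 0.32 for Orc5, with 37 of 40 below 0; the median over all genes was −0.01. The median rested on replicate 1: without that array it was −0.03, with 24 of 40 members below 0. Without replicate 3 it was −0.48, and limma gave 15 members at an unadjusted p under 0.05, of which 14 were lower, in place of 2 with all arrays. With replicates 2 and 3 of every group alone it was −0.09, with 30 of 40 below 0, and limma gave 10 members at an unadjusted p under 0.05, of which 9 were lower at 3 days (Mcm2, Mcm3, Gins1, Prim1, Pole, Rpa1, Rpa2, Ccne1 and Ccne2) and Orc5 was higher. The 95% intervals of single members reached a median of 0.52 to either side of the change, from 0.16 to 0.97. For members with intervals wider than that median, differences below 0.52 could not be told from 0. With all arrays, limma gave Rpa1 as lower and Orc5 as higher at an unadjusted p under 0.05. Over all 14860 genes it gave 1564 at that level, 688 lower and 876 higher. For the settings with 15 or 10 members the count over all genes was not taken, so those counts have no background beside them. Groups did not overlap for 4 members that were lower at 3 days (10%), Mcm2, Mcm3, Mcm5 and Rpa1, against 4.91% of all genes, and for 1 that was higher (2.5%), Orc5, against 6.59%. For these 4 the highest 3-day value stood close to the lowest CSF-1 alone value, from 9.83 against 9.86 in Mcm5 to 9.18 against 9.25 in Mcm2. In RNA from a whole culture, fewer cells in S phase and less RNA per cell cannot be told apart.

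All 6 MCM helicase subunits were lowest on replicate 1 at 3 days. Mcm2 stood at 9.25, 9.46 and 9.34 in CSF-1 alone, at 9.35, 9.27 and 9.25 after 1.5 days of RANKL and at 8.33, 9.18 and 9.14 after 3 days. Mcm3 stood at 10.24, 10.38 and 10.40, then 10.14, 10.24 and 10.41, then 9.30, 10.18 and 10.18 in the same order. Mcm5 stood at 9.86, 10.07 and 9.88, then 9.88, 10.00 and 9.98, then 8.63, 9.82 and 9.83. For these 3 subunits every 3-day array was below every CSF-1 alone array, and replicate 1 was the lowest by a gap of 0.81, 0.84 and 1.19 to the next array. Mcm4 stood at 8.85, 8.99 and 8.97, then 9.04, 8.96 and 8.99, then 7.93, 8.79 and 8.92. Mcm6 stood at 10.35, 10.54 and 10.45, then 10.47, 10.60 and 10.47, then 9.63, 10.33 and 10.48. Mcm7 stood at 9.42, 9.40 and 9.40, then 9.44, 9.48 and 9.52, then 8.50, 9.38 and 9.47. For Mcm4, Mcm6 and Mcm7 replicate 1 was again lowest, while another 3-day array overlapped the CSF-1 alone arrays. The mean of Mcm2 went from 9.35 ± 0.11 (SD, n = 3) to 8.88 ± 0.48 (SD, n = 3), a change of −0.47 with a standard error of 0.21 (limma adjusted p = 0.492). The other 5 changes lay between −0.29 (Mcm7) and −0.51 (Mcm5), with adjusted p of 0.540 or more. Without replicate 1 the change of Mcm2 was −0.19 (limma unadjusted p = 0.0357, adjusted p = 0.335), those of Mcm3 and Mcm5 were −0.16 and −0.11, and that of Mcm7 was 0.02.

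**Figure D2:**
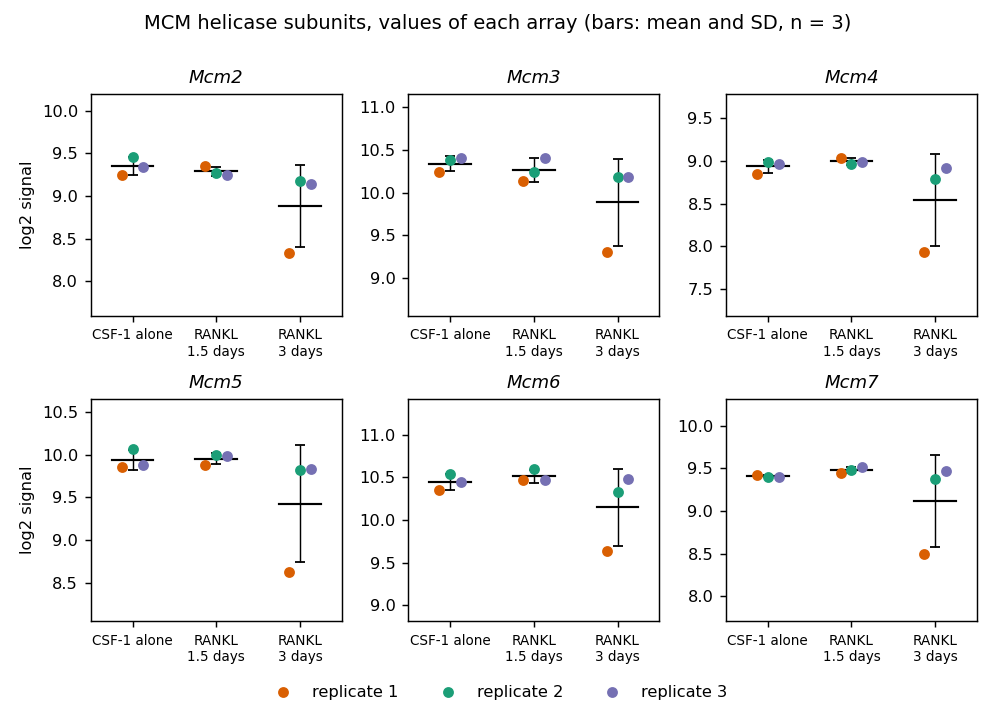
Log2 signal of the 6 MCM subunits on each array, by group, with the mean as a bar and the SD as a whisker (n = 3); the panels span the same height. In every panel RANKL 3 days replicate 1 lies far below the other 8 points, at 8.33 for Mcm2 and 8.63 for Mcm5.

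Among the genes that recognise origins and load the helicase, the subunits of the origin recognition complex did not move as a unit. Orc5 stood at 7.44, 7.40 and 7.42 in CSF-1 alone, at 7.76, 7.61 and 7.61 at 1.5 days and at 7.63, 7.61 and 7.99 at 3 days. Every RANKL array was thus above every CSF-1 alone array, and the change was 0.32 at 3 days (SE 0.10, limma unadjusted p = 0.0152, adjusted p = 0.320) and 0.24 at 1.5 days (SE 0.10, limma adjusted p = 0.571). Without replicate 1 of the 3-day group the change of Orc5 was 0.38 (limma adjusted p = 0.225). Its size rested in part on replicate 3, the array with the highest overall median. Orc5 lay 0.57 above its CSF-1 alone mean there, against 0.21 and 0.19 on replicates 1 and 2. Orc4 lay 0.65 above its own on replicate 3, against 0.10 and 0.07. On replicate 1 at 3 days, Orc3 lay 0.13 below its CSF-1 alone mean, Orc4 0.10 above it and Orc5 0.21 above it. On the same array Orc1 lay at −0.45, Orc2 at −0.50 and Orc6, which binds the complex less tightly than the others, at −1.06. The fitted changes at 3 days were −0.14 for Orc1, −0.13 for Orc2, 0.04 for Orc3, 0.27 for Orc4 and −0.40 for Orc6, none of which passed the test.

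The elements of Orc1 and Orc3 are shown because these subunits differed on that array although both windows held an E2F element; the stretches were picked after the values were seen. Each has 30 bases, 5′ to 3′ along the gene with the element in capitals: Orc1 lies at chr4:108579416-108579445 on the plus strand and Orc3 at chr4:34614965-34614994 on the minus strand, both in GRCm38.p6.
Orc1: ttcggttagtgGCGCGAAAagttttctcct
Orc3: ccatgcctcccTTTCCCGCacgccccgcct
The element began 27 bases before the start in Orc1 and 41 bases before it in Orc3. The windows of Orc4, Orc5 and Rfc1, the members that were not lowest on that array, held none, but neither did those of Orc2, Orc6 and Ccne1. Of the 33 measured members with a window, the 14 with an element had a median of −0.86 on the array (from −1.31 to −0.13) and the 19 without had a median of −0.93 (from −1.21 to 0.21).

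The helicase loaders Cdc6 and Cdt1 followed the MCM subunits. Cdc6 stood at 6.73, 6.98 and 6.86 in CSF-1 alone, at 6.88, 6.85 and 6.96 at 1.5 days and at 5.62, 6.56 and 6.95 at 3 days. Cdt1 stood at 9.12, 9.44 and 9.65, then 8.99, 9.38 and 9.56, then 8.35, 9.52 and 9.38. In both, replicate 1 was the lowest 3-day array and another 3-day array lay within the CSF-1 alone range. Their changes at 3 days were −0.48 (SE 0.29) and −0.32 (SE 0.31), and without replicate 1 they were −0.10 and 0.05. Replicate 1 of Cdt1 was also the lowest array in each of the other groups, as it was for several other members, Mcm3, Mcm5, Cdc45, Gins1 and Pola1 among them. Over all members the CSF-1 alone median was −0.10 on replicate 1 against 0.09 and 0.02. At 1.5 days it was 0.02 on replicate 1 against −0.01 and 0.06.

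**Figure D3:**
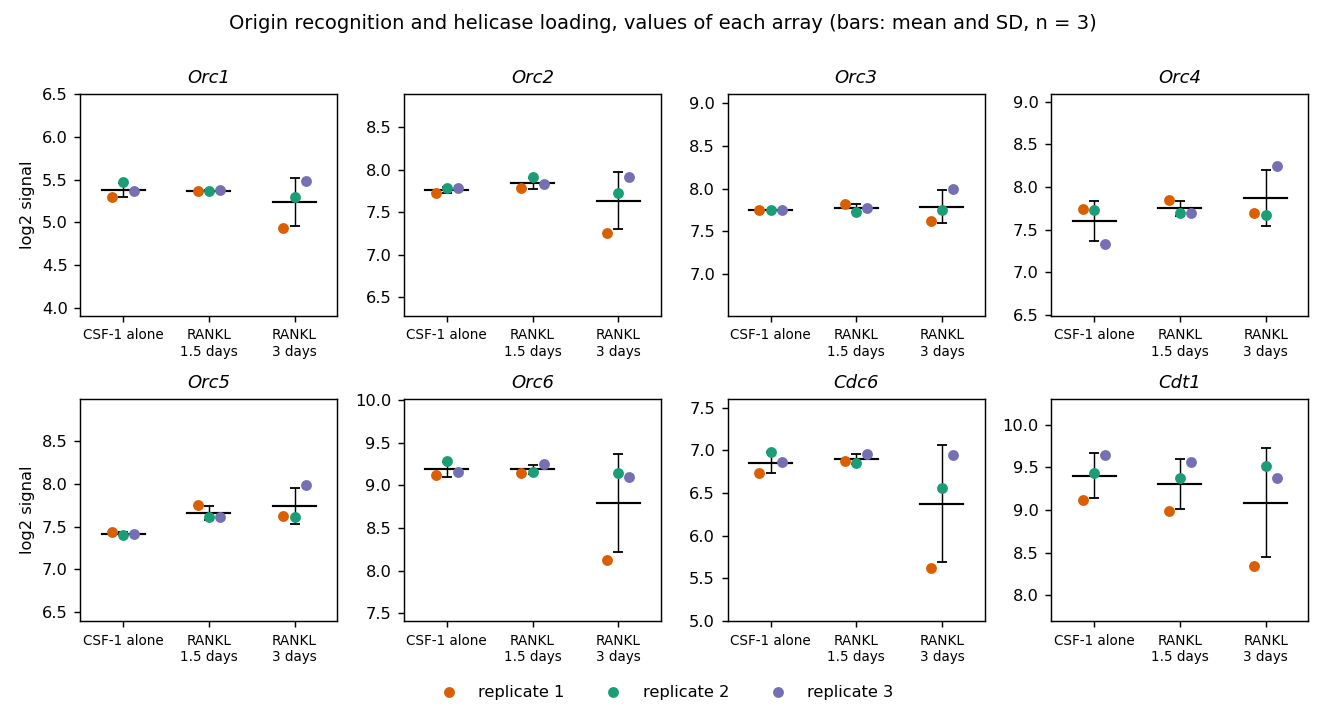
Log2 signal of Orc1 to Orc6, Cdc6 and Cdt1 on each array, by group, with the mean as a bar and the SD as a whisker (n = 3); the panels span the same height. Orc6, Cdc6 and Cdt1 are lowest on RANKL 3 days replicate 1, while all RANKL points of Orc5 lie above its CSF-1 alone points, which run from 7.40 to 7.44.

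The genes that activate the helicase included the second largest deviation of the members on RANKL 3 days replicate 1. Gins1, a subunit of the GINS complex that rides with the moving helicase, stood at 7.63, 7.80 and 7.89 in CSF-1 alone, at 7.61, 7.69 and 7.67 at 1.5 days and at 6.29, 7.46 and 7.70 at 3 days. Gins3 stood at 7.31, 7.65 and 7.54, then 7.65, 7.83 and 7.94, then 6.89, 7.66 and 7.72. Gins1 was thus low on 2 of the 3 arrays at 3 days, whereas Gins3 was low on replicate 1 alone and overlapped between all groups. The change of Gins1 at 3 days was −0.62 (SE 0.32, limma adjusted p = 0.554), and −0.19 without replicate 1. That of Gins3 was −0.08 at 3 days, 0.19 without replicate 1 and 0.31 at 1.5 days (SE 0.22, limma adjusted p = 0.838). Mcm10, Cdc45, Gins2 and Gins4 changed by −0.17, −0.41, −0.41 and −0.14 at 3 days, and all 6 genes of this role were lowest on replicate 1, where they lay 0.34 (Gins4) to 1.48 (Gins1) below the CSF-1 alone mean.

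All 8 measured polymerase and primase genes were lowest on replicate 1 at 3 days, by 0.54 (Pola2) to 1.09 (Pold2) below the CSF-1 alone mean. Pole, the catalytic subunit of polymerase epsilon on the leading strand, stood at 8.06, 8.26 and 8.15 in CSF-1 alone, at 8.22, 8.06 and 8.06 at 1.5 days and at 7.15, 7.90 and 8.06 at 3 days. Pola1, the catalytic subunit of polymerase alpha, which extends the primers, stood at 7.85, 8.19 and 8.25, then 7.75, 7.96 and 8.07, then 7.18, 7.89 and 8.18. In Pole the highest 3-day array met the lowest CSF-1 alone array, and in Pola1 the groups overlapped. The change at 3 days was −0.45 for Pole (SE 0.21, limma adjusted p = 0.521) and −0.35 for Pola1 (SE 0.24, adjusted p = 0.681 from limma), and without replicate 1 these were −0.18 and −0.06. Pola2, Pold1, Pold2 and Pole2, further subunits of the polymerases, and Prim1 and Prim2, the primase, changed by −0.19 (Pola2) to −0.40 (Prim1). Without replicate 1 the changes of these 6 lay between −0.08 (Prim1) and 0.01.

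In the clamp loader, Rfc1 lay close to its CSF-1 alone mean on every array. Rfc1, the largest subunit, stood at 8.56, 8.75 and 8.70 in CSF-1 alone, at 8.54, 8.58 and 8.59 at 1.5 days and at 8.60, 8.47 and 8.63 at 3 days. The 3-day arrays overlapped the CSF-1 alone arrays and replicate 1 was the middle of the 3; the change was −0.10 at both times (SE 0.07, limma adjusted p = 0.665 at 3 days and 0.828 at 1.5 days), with an interval from −0.26 to 0.06 at 3 days. Rfc3, Rfc4 and Rfc5, the small subunits, lay 0.67, 1.21 and 0.76 below the CSF-1 alone mean on replicate 1. Their changes at 3 days were −0.23, −0.33 and −0.18, and without replicate 1 those of Rfc4 and Rfc5 were 0.11 and 0.12.

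Of the genes that bind single strands and process the lagging strand, Rpa1 had the smallest p of the members that were lower. Rpa1, the largest subunit of replication protein A, stood at 9.43, 9.71 and 9.68 in CSF-1 alone, at 9.46, 9.54 and 9.52 at 1.5 days and at 8.68, 9.40 and 9.39 at 3 days. Each 3-day array lay below each array of both other groups, although the margin to the lowest CSF-1 alone array was small outside replicate 1. The change was −0.45 (SE 0.19, limma unadjusted p = 0.0438, adjusted p = 0.454), and −0.21 without replicate 1 (limma unadjusted p = 0.0514). Fen1, the nuclease that trims primer flaps, stood at 8.56, 8.66 and 8.69, then 8.75, 8.83 and 8.75, then 8.22, 8.45 and 8.75. The 1.5-day arrays of Fen1 lay above all CSF-1 alone arrays, and the 3-day arrays overlapped both groups. Its change was 0.14 at 1.5 days (SE 0.12), −0.16 at 3 days (SE 0.12) and −0.30 between the time points (SE 0.12, limma unadjusted p = 0.0388, adjusted p = 0.823). Rpa2 changed by −0.42 at 3 days.

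Deoxynucleotide supply was measured by Rrm1, the large subunit of ribonucleotide reductase, and Tyms, which makes thymidylate. Rrm1 stood at 10.87, 10.92 and 10.84 in CSF-1 alone, at 11.00, 10.96 and 10.90 at 1.5 days and at 9.85, 10.80 and 10.97 at 3 days. Tyms stood at 6.69, 7.04 and 7.02, then 7.12, 6.98 and 7.25, then 6.40, 6.94 and 7.09. Both overlapped between groups and both were lowest on replicate 1 at 3 days. Rrm1 changed by −0.34 at 3 days (SE 0.25, limma adjusted p = 0.702), and by 0.01 without replicate 1. Tyms changed by −0.11 at 3 days and 0.20 at 1.5 days (SE 0.18, limma adjusted p = 0.904).

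Among the members, cyclin E showed the largest deviation on RANKL 3 days replicate 1. Ccne2 stood at 8.39, 8.80 and 8.80 in CSF-1 alone, at 8.68, 8.62 and 8.73 at 1.5 days and at 6.86, 8.43 and 8.65 at 3 days. Ccne1 stood at 7.84, 8.41 and 8.21, then 8.17, 8.12 and 8.11, then 7.03, 8.0 and 8.04. Cdk2, the kinase that both cyclins activate, stood at 9.14, 9.17 and 9.16, then 9.19, 9.17 and 9.19, then 8.59, 9.16 and 9.16. Replicate 1 at 3 days lay 1.80, 1.12 and 0.57 below the CSF-1 alone mean in Ccne2, Ccne1 and Cdk2, and in each the other 3-day arrays overlapped the CSF-1 alone arrays. The change at 3 days was −0.68 for Ccne2 (SE 0.42, interval −1.65 to 0.28), −0.46 for Ccne1 (SE 0.27) and −0.19 for Cdk2 (SE 0.14). Without replicate 1 it was −0.12, −0.13 and 0.00333.

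After 1.5 days of RANKL the median member lay close to its CSF-1 alone level. No member passed limma's test, which called 62 genes (0.417%, or 2 to 139 when 1 array was left out). None had an unadjusted p under 0.05, against 1312 of 14860 genes. The fit takes 1 spread per gene from all 9 arrays, so RANKL 3 days replicate 1 also enters these p-values and intervals. With the 6 arrays of this comparison alone, limma gave 4 members at an unadjusted p under 0.05, all higher. They were Orc5, Gins3, Pole2 and Fen1, and none was called (smallest limma adjusted p 0.192). With these 6 arrays the count over all genes at the unadjusted level was not taken, so the 4 members have no background beside them. The median change was 0.025, or −0.005 with each array centred, against 0.01 over all genes, and single changes ran from −0.17 (Pola1) to 0.31 (Gins3). Groups did not overlap for 5 members that were higher (12.5%), against 8.63% of all genes, and for 0 that were lower, against 6.05%. The 5 were Mcm7, Orc5, Pola2, Pole2 and Fen1, with changes of 0.07, 0.24, 0.07, 0.09 and 0.14. The widest interval, that of Ccne2, ran from −0.95 to 0.98, and the narrowest, that of Rfc1, from −0.26 to 0.06.

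**Figure D4:**
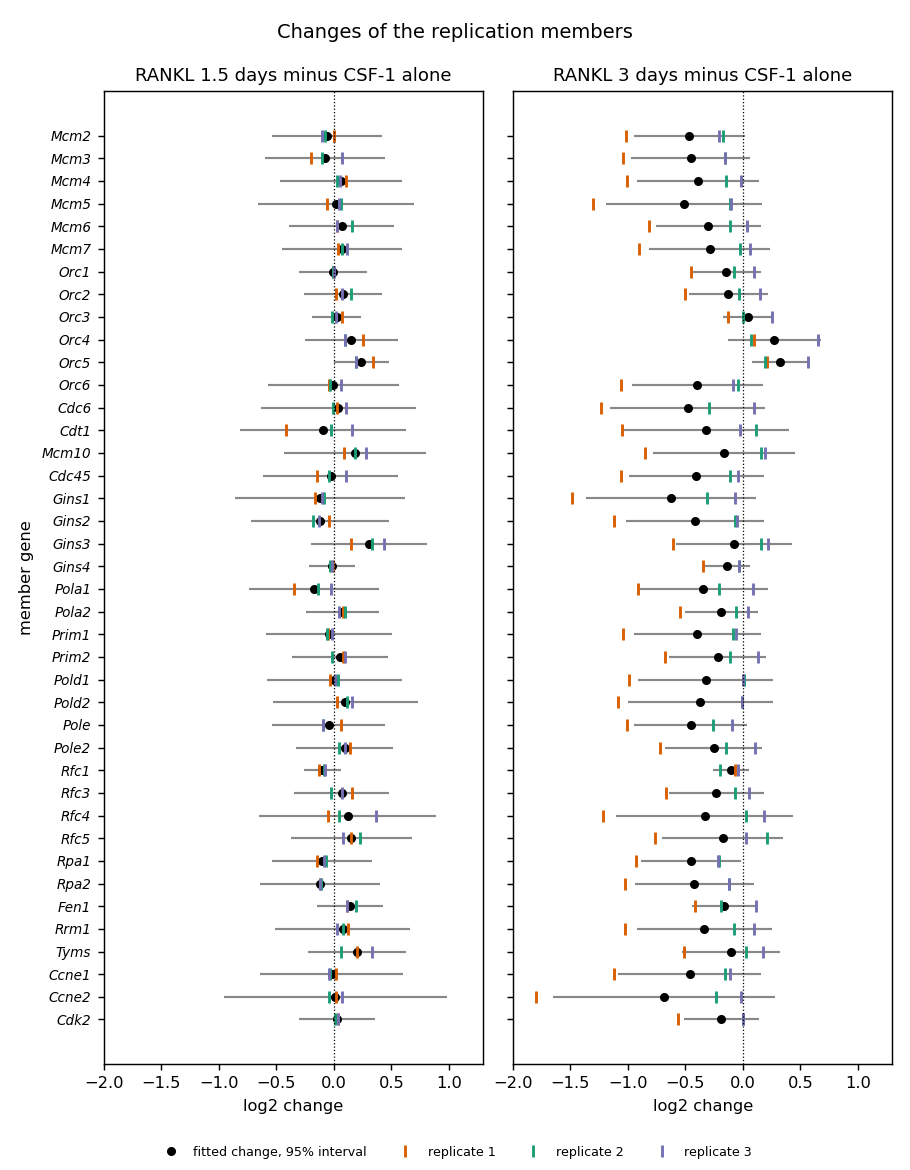
Log2 change of each member against CSF-1 alone at 1.5 days (left) and 3 days (right); dots are the limma changes, grey lines their 95% intervals and coloured ticks the 3 arrays of the RANKL group minus the CSF-1 alone mean. At 1.5 days the dots lie between −0.17 and 0.31, and at 3 days the orange ticks of replicate 1 lie far to the left of the others for most genes.

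Between 1.5 and 3 days of RANKL the median change was −0.35, with 37 of 40 members below 0, and single changes ran from −0.70 (Ccne2) to 0.12 (Orc4). No member was called, and limma called 0 genes (0%) in this comparison, with 771 of all genes and 1 member, Fen1, at an unadjusted p under 0.05. Groups did not overlap for 7 members that were lower at 3 days (17.5%), Mcm2, Mcm4, Mcm5, Pold2, Rpa1, Ccne1 and Cdk2, against 3.37% of all genes, and for 0 that were higher, against 3.42%. Replicate 1 at 3 days was the lowest array for 37 of 40 members, so overlap turned on the other 3-day arrays. Their highest value stood close to the lowest 1.5-day value, from 9.16 against 9.17 in Cdk2 to 9.18 against 9.25 in Mcm2. Without replicate 1 of the 3-day group the median was −0.06, with 32 of 40 below 0, and without replicate 3 it was −0.51, with 40 of 40 below 0 and 15 members, all lower, at an unadjusted p under 0.05. With the replicate number as a block, limma gave 3 members at that level, Gins3, Rpa1 and Fen1, all lower, and again called none. The count over all genes was not taken for the settings with 15 or 3 members, so those counts have no background beside them. Within the arrays numbered 1, 2 and 3 the median difference was −0.88, −0.08 and −0.02 here, −0.77, −0.16 and −0.01 at 3 days against CSF-1 alone, and 0.10, −0.06 and 0.02 at 1.5 days.

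Other genes of the cell cycle were set beside the members. The genes named from each list are those with its smallest unadjusted p from limma in any comparison, so they are extremes by choice. The comparison shown differs between genes. Of 35 further replication factors, none was called in any comparison, their median change was −0.24 at 3 days and 0.02 at 1.5 days, and 29 of 35 were lowest on replicate 1 at 3 days. Mcm9, a relative of the helicase subunits that acts in DNA repair, changed by −0.55 at 3 days and −0.49 at 1.5 days (SE 0.17, limma adjusted p = 0.273 and 0.409). Pold4, the small subunit of polymerase delta, changed by 0.35 and 0.30 (SE 0.12, limma adjusted p = 0.365 and 0.532). Dna2, a nuclease that acts with Fen1, changed by −0.38 between the time points, and Dnmt1, which copies DNA methylation, by −0.34 at 3 days. Mcm9 and Pold4 thus had changes of like size at both times, but both times were set against the same CSF-1 alone arrays. Neither gene passed the test.

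Of 11 E2F and pocket protein genes none was called; their median change was −0.13 at 3 days and −0.02 at 1.5 days, and 7 of 11 were lowest on replicate 1 at 3 days. E2f7, a repressor of E2F targets, changed by −0.59 at 3 days (SE 0.19, limma adjusted p = 0.309), with every 3-day array below every CSF-1 alone array, and Rbl1, the pocket protein p107, by −0.33. E2f4 changed by −0.22 between the time points and E2f2 by −0.37. The 30 mitosis genes had a median of −0.74 on replicate 1 at 3 days, where 30 of 30 were lowest, and of 0.00333 and 0.14 on the other 3-day arrays. Their median change was −0.21 at 3 days and 0.10 at 1.5 days, and none was called. Ccnb2, Birc5 and Ccna2 changed by −0.33, −0.38 and −0.47 between the time points and Incenp by −0.31 at 3 days against CSF-1 alone. Within the arrays numbered 1, 2 and 3 the median difference of the mitosis genes between the time points was −0.825, −0.105 and 0.005.

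**Figure D5:**
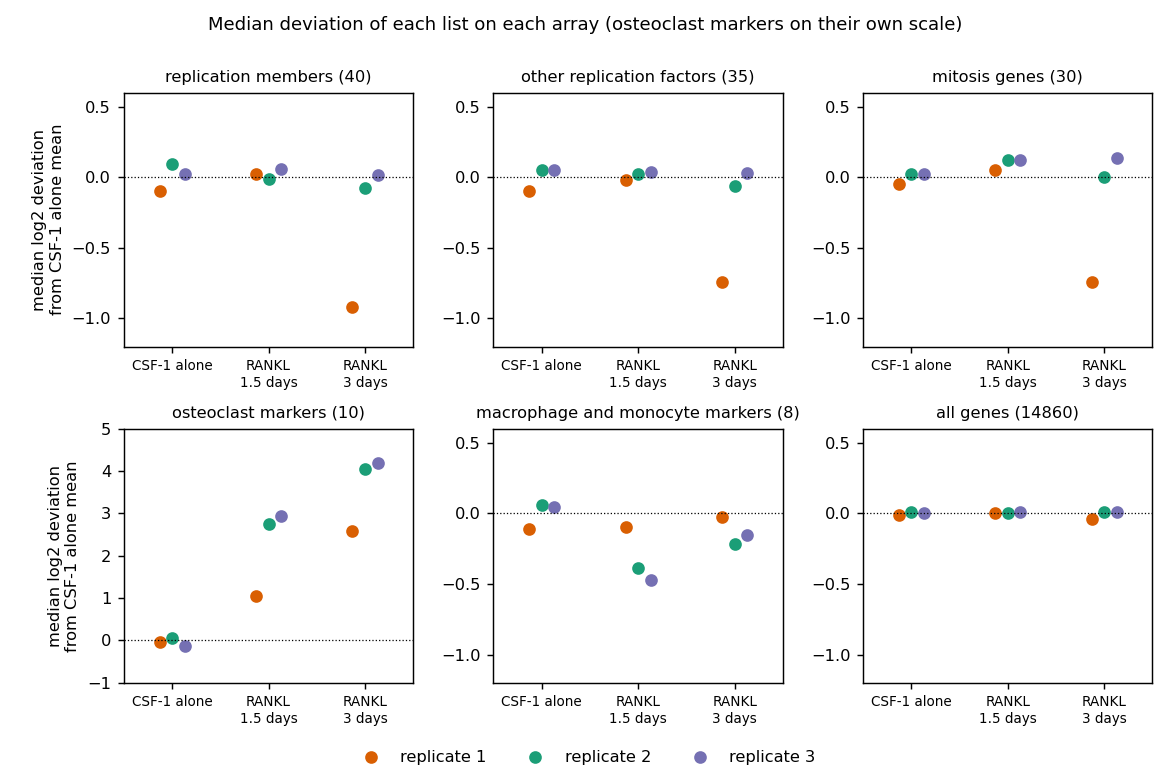
Median over each gene list of the log2 signal minus the gene's CSF-1 alone mean, on each array; the OC markers have a scale of their own. The members, the other replication factors and the mitosis genes lie between −0.10 and 0.14 on 8 arrays and at −0.92, −0.74 and −0.74 on RANKL 3 days replicate 1, while the median over all genes stays within 0.04 of 0.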

How the data were processed

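Each sample was 1 Affymetrix mouse exon array, hybridised with biotin-labelled RNA. The submitters' processing notes name Expression Console (Affymetrix) and RMA, with versions not given in the sources used here. RMA subtracts background, quantile-normalizes the arrays and summarises probes by median polish, and the values the authors deposited are log2 signals per transcript cluster. Because RMA sets the arrays to like distributions, a shift shared by most genes may not show. The deposited values of RANKL 3 days replicate 3 still had a higher median (5.22) than the other arrays (5.02 to 5.09). Calls of detection were not used.

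Of 23332 transcript clusters, 14996 carried 1 gene symbol in the platform annotation, and the cluster with the highest mean was kept for a symbol, which left 14860 genes; each measured member had 1 cluster. Groups came from the sample labels. A mean per group was fitted to all 9 arrays with limma 3.58.1 in R 4.3.3 (6 residual and 1.83 prior degrees of freedom), tested two-sided, with Benjamini-Hochberg adjustment over all genes and calls at 0.05. The test was tried on simulated data with known changes. For a lone gene, permuting 3 against 3 arrays gives an exact p of 0.1 at best. Deviations of same-numbered arrays from their group means correlated above 0.1 in all 3 pairs between 1.5 and 3 days (0.146 to 0.366). That is a hint of pairing, not proof of it. The labels name no shared source, so the main fit took no pairing and a replicate block was an alternative. Members and lists were chosen with earlier results of these data known. Values on every array are given for Mcm2 to Mcm7, Cdc6, Cdt1, the cyclin E genes, Cdk2 and the members of each other role with the smallest p at 3 and 1.5 days. Promoter windows came from RefSeq; Mcm4, Gins1, Gins2, Gins4, Prim2, Pole, Rfc2 and Ccne2 were not matched. Alternatives were a replicate block, a term for replicate 1 against replicates 2 and 3, replicates 2 and 3 alone, the 6 arrays compared, centring, quantile normalization again, array weights, a robust variance trend, dim genes left out, the mean of clusters, all clusters, the methods' t-test and each array left out.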

Additional observations from a re-analysis of the deposited data

How the results depend on the processing

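No member was called in any of the 3 comparisons under any of 21 settings, and all 2520 recomputed member changes stayed on the same side of the threshold (smallest limma adjusted p 0.0639, with replicates 2 and 3 alone at 3 days against CSF-1 alone). Uncalled changes turned sign in 22, 39 and 16 of 840 recomputed values at 3 days against CSF-1 alone, at 1.5 days and between the time points. With replicates 2 and 3 alone the median change was −0.09, −0.01 and −0.08 in that order, and with weights per array, where RANKL 3 days replicate 1 had a weight of 0.249, it was −0.17, 0.01 and −0.19. Leaving out each array in turn gave medians from −0.48 to −0.03, from −0.01 to 0.09 and from −0.51 to −0.06, and 0 calls each time. The deviation of the members on RANKL 3 days replicate 1 was −0.82 as a mean and −0.83 with each array centred. Correlations of same-numbered deviations were above 0 in all 9 pairs (0.046 to 0.366), and 6 of 9 arrays correlated best with their own number, a hint from the data that numbers share a source; against CSF-1 alone the pair numbered 2 was under 0.1 at both times. With the replicate block 0 members were called in each comparison, and 97 genes in place of 59 at 3 days, 71 in place of 62 at 1.5 days and 0 between the time points. Counts over all genes moved both ways. At 3 days they ran from 0 (the methods' t-test) and 19 (all clusters) to 215 (a term for replicate 1) and 334 (replicates 2 and 3 alone), and with 1 array left out from 4 (without replicate 2 of CSF-1 alone, replicate 2 at 1.5 days or replicate 3 at 3 days) to 102 (without RANKL 3 days replicate 1). At 1.5 days they ran from 2 (without CSF-1 alone replicate 3) to 607 (weights per array), and between the time points they were 0 throughout. Members at an unadjusted p under 0.05 numbered 0 to 15, 0 to 5 and 0 to 15 over the settings, with 15 both times without RANKL 3 days replicate 3, and the methods' t-test gave 0, 5 and 0. Counts over all genes at that level were taken in the main limma fit alone (1564, 1312 and 771). The number of arrays limits what these data can show of changes smaller than the intervals.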
